A study of Mus musculus with 21 samples.

Results

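The binding of Foxa and Hnf4a in the same cells was compared 48 hours after mouse embryonic fibroblasts had been given both factors. The members were the peaks of 6 lists, a Foxa list and an Hnf4a list from each of 3 lines, chosen by the labelled stage, line and antibody. After 3 regions had been left out (chr9:2990000-3048500, chr2:98492000-98517500 and chr10:7219000-7247000, build mm9), which removed 128 of 418, 125 of 453 and 119 of 370 Hnf4a peaks in the lines of Foxa1, Foxa2 and Foxa3, 20114 peaks remained, 19245 of Foxa and 869 of Hnf4a, of 53537 peaks in the 13 deposited lists.

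All cells were C57BL/6 mouse embryonic fibroblasts, taken from embryos at 13.5 days post coitum and infected with retroviruses. The cells that received Foxa1 and Hnf4a (48hr_4a1) are called the Foxa1 line, those that received Foxa2 and Hnf4a (48hr_4a2) the Foxa2 line, and those that received Foxa3 and Hnf4a (48hr_4a3) the Foxa3 line. The same 3 pairs of factors made the hepatocyte-like iHep cells (iHep_4a1, iHep_4a2 and iHep_4a3), which are fibroblasts converted by these factors and kept in culture, and their 6 lists were used for the fate of the 48-hour peaks. Every group used here received Hnf4a and a Foxa protein, and no list came from cells with only 1 of the factors or with none. Binding was mapped by chromatin immunoprecipitation followed by sequencing (ChIP-seq), in which sonicated chromatin is pulled down with an antibody and regions rich in reads are called as peaks.

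Foxa proteins are forkhead transcription factors, known as pioneer factors because they can bind their sites in closed chromatin. Hnf4a is a nuclear receptor that binds DNA as a dimer and is a main regulator of hepatocyte genes. In liver, many enhancers and promoters are bound by both, and adding a Foxa protein with Hnf4a is known to turn fibroblasts into hepatocyte-like cells.

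Each group held 1 library, so none of the differences has a replicate check and no test between groups was possible. Intervals are 95% Wilson intervals of a share, Newcombe intervals of a difference between shares or order-statistic intervals of a median, and cover counting error only. The Foxa lists differ in protein, antibody and line together, and these cannot be told apart. The sample titles carry a common code for the Foxa2 and Foxa3 lines at 48 hours and a different one for the Foxa1 line, and the labels do not say what the code marks. The files give no read counts, so depth is unknown here and a site without a peak is not shown to be unbound. They hold no expression values, so the labelled cell types were not checked against marker genes.

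At 48 hours most Hnf4a peaks lay far from the Foxa peaks of their line. A peak was called joint where it overlapped a peak of the other factor by at least 1 bp, near where it did not overlap but the centres lay within 2 kb, and apart otherwise. Over the 3 lines 87 Hnf4a peaks were joint, 31 near and 751 apart. With Foxa1, 41 of 290 Hnf4a peaks of its line were joint, 14.1% (10.6 to 18.6). With Foxa2 it was 38 of 328, 11.6% (8.56 to 15.5). With Foxa3 it was 8 of 251, 3.19% (1.62 to 6.16). The Foxa3 line was lowest, and its interval did not overlap those of the other 2 lines, which overlapped each other. With the 3 regions kept in, the joint shares were 37.8%, 33.6% and 31.6%, and among the upper 50% of each list by score they were 7.64%, 6.06% and 0%. The near class was small in all 3 lines, with 11 peaks (3.79%) beside Foxa1, 15 (4.57%) beside Foxa2 and 5 (1.99%) beside Foxa3.

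Seen from the Foxa side, the overlap was a very small part of the binding. For Foxa1, 36 of 6762 peaks were joint, 0.532% (0.385 to 0.736). For Foxa2 this was 32 of 6819, 0.469% (0.333 to 0.662). Only 7 of 5664 Foxa3 peaks were joint, 0.124% (0.0599 to 0.255), although the Foxa3 peaks covered more of the 2573 Mb spanned by the lists (0.146%) than the Foxa1 (0.121%) or Foxa2 peaks (0.120%). The 48-hour Hnf4a lists were short beside the Foxa lists, which caps the share of Foxa peaks that could be joint.

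The distance from each Hnf4a peak to the nearest Foxa peak centre showed a close group and a far group with little between. The median distance was 83.1 kb to Foxa1, 103 kb to Foxa2 and 200.2 kb to Foxa3, each in its own line. Within 0.5 kb of Foxa1, Foxa2 and Foxa3 centres lay 15.5%, 14.6% and 3.98% of the Hnf4a peaks. Widening the distance to 5 kb raised these shares to 21.7%, 17.1% and 5.18%. The nearest apart peak lay at 2041 bp from Foxa1, just outside the limit, at 3069.5 bp from Foxa2 and at 5097 bp from Foxa3. Just inside it, the farthest near peaks lay at 1892.5, 1712.5 and 910.5 bp. Between 2 and 5 kb there were 11, 3 and 0 apart peaks, beside near classes of 11, 15 and 5.

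**Figure D1:**
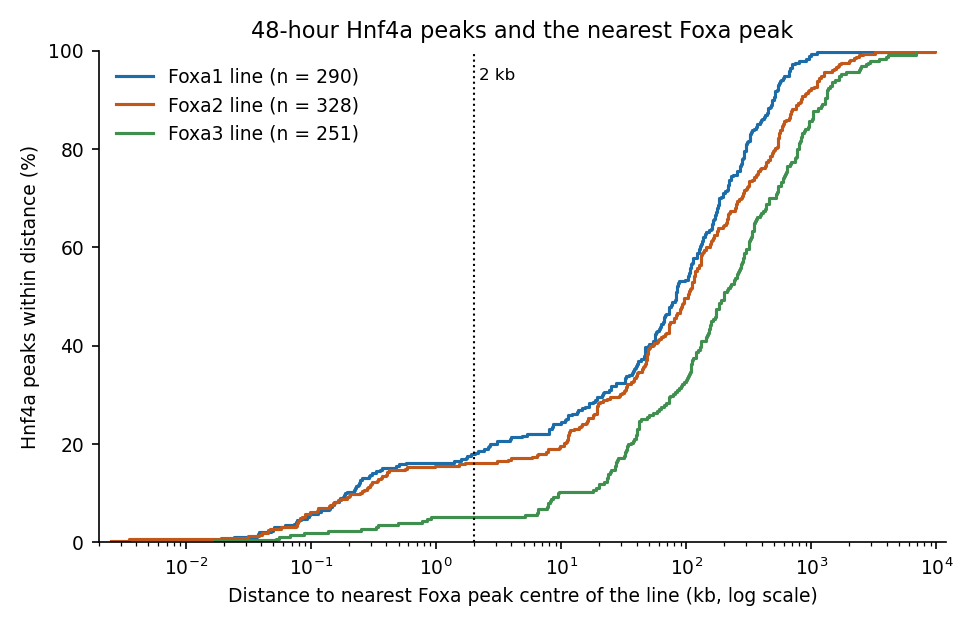
Cumulative share of 48-hour Hnf4a peaks (y axis, percent) within a given distance of the nearest Foxa peak centre of the same line (x axis, kb, log scale), with the 2 kb limit dotted. The curves of the Foxa1 line (290 peaks) and the Foxa2 line (328 peaks) flatten after about 0.5 kb, at 15.5% and 14.6%, and the curve of the Foxa3 line (251 peaks) stays below them.

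Where the factors met, the Hnf4a peak usually lay wholly within the Foxa peak. This held for 34 of 41 joint Hnf4a peaks with Foxa1, 27 of 38 with Foxa2 and 7 of 8 with Foxa3. The Hnf4a peaks were much narrower, with list medians of 78, 74 and 71 bp against 436, 424 and 537 bp for Foxa. An overlapping peak would therefore often lie within, and whether the counts went beyond this was not tested. The centres were a median of 142.5, 93.5 and 77.5 bp apart, in the same order. Most joint Foxa peaks held a single Hnf4a peak (31 of 36, 24 of 32 and 6 of 7). The others held 2, apart from 1 Foxa2 peak that held 3.

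The joint share also depended on which line's Foxa list was laid over the Hnf4a peaks. Hnf4a peaks of the Foxa1 line overlapped its own Foxa1 list at 14.1%, the Foxa2 list of the other line at 12.4% and the Foxa3 list at 4.83%. For Hnf4a of the Foxa2 line the shares were 4.57% with Foxa1, 11.6% with its own Foxa2 and 6.40% with Foxa3. For Hnf4a of the Foxa3 line they were 3.19% with Foxa1, 7.97% with Foxa2 and 3.19% with its own Foxa3. The line's own Foxa list thus gave the highest share in the Foxa1 and Foxa2 lines and not in the Foxa3 line, where 20 Hnf4a peaks overlapped Foxa2 peaks of the other line and 8 overlapped Foxa3 peaks. Of these 20, 3 lay in the run of wide peaks on chromosome 17 described with the regions. These comparisons share their lists and were not tested against each other.

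The 48-hour Hnf4a peaks were narrow, and the joint ones were somewhat wider. Between 65.7% and 66.9% of each list was under 100 bp, and 65, 54 and 37 peaks sat at the smallest width in the list (53, 51 and 51 bp). Median widths of joint, near and apart Hnf4a peaks were 88, 76 and 76 bp with Foxa1, 96.5, 57 and 72 bp with Foxa2, and 118.5, 72 and 70 bp with Foxa3. Whether width itself had a part in which peaks overlapped was not tested. Joint Foxa1 peaks (median 509 against 436 bp) and joint Foxa2 peaks (575.5 against 423 bp) were wider than the apart ones. Joint Foxa3 peaks were narrower (398 against 537 bp), over 7 peaks.

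**Figure D2:**
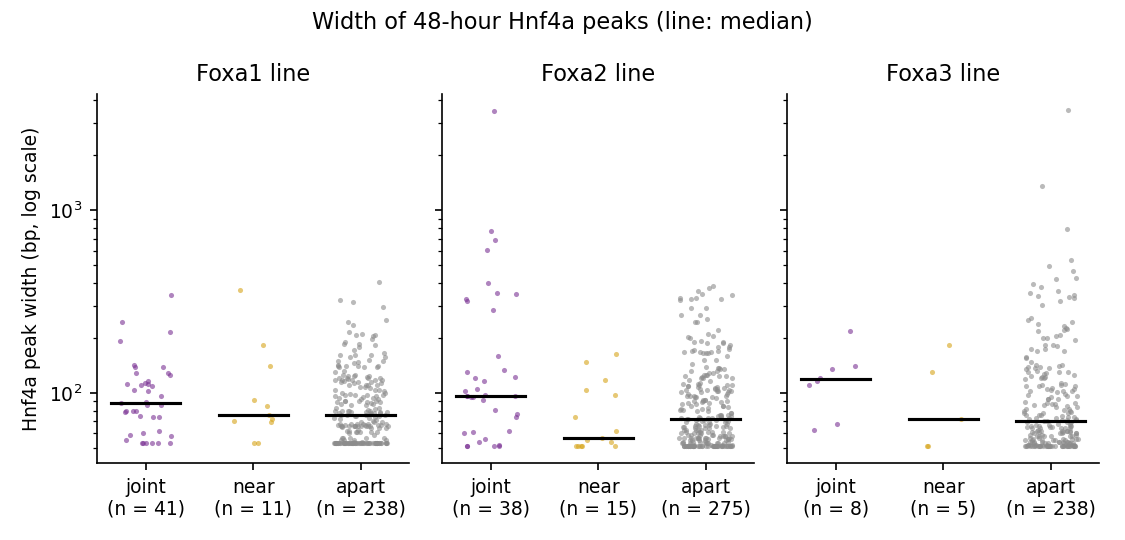
Width of every 48-hour Hnf4a peak (y axis, bp, log scale) by class and line; each point is a peak and the bar is the median. Joint peaks have the highest median in each line (88, 96.5 and 118.5 bp), and the ranges of the classes overlap widely.

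Scores, as the authors' peak caller gave them, were compared only within a list, as the percentile of a peak in its own list. The highest-scoring Hnf4a peak of each line was apart, as were most peaks of each list, and in the Foxa1 line joint peaks ranked 8 and 10 of 290. The highest 25% of the Hnf4a list held 8 joint peaks of 77 with Foxa1, 6 of 82 with Foxa2 and 0 of 63 with Foxa3. For Foxa1 cells it was chr1:41912963-41913023 (score 24.8), 672 kb from the nearest Foxa1 peak and in no other list of the 12. The Foxa2 line had chr1:169270419-169270505 (score 45.4), 47.2 kb from Foxa2, and the Foxa3 line chr17:7146225-7146408 (score 56.0), 6.56 kb from Foxa3. Each of these 2 was also an Hnf4a peak in the other of the 2 lines and in no iHep list. The median percentile of joint Hnf4a peaks was 42.1 (29.8 to 60.2) with Foxa1, 43.4 (31.6 to 62.7) with Foxa2 and 21.9 (3.39 to 49.2) with Foxa3. All 8 joint Hnf4a peaks of the Foxa3 line were in the lower 50% of the list by score, and only there did the interval leave out the 50th percentile. That value was 59.1 with the 3 regions kept in.

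The highest-scoring near Hnf4a peak of each line is given next. Beside Foxa1 this was chr13:24287255-24287619 (score 11.6, rank 27), which was also a Foxa2 peak at 48 hours, an Hnf4a peak in both other lines, and a peak in all 3 iHep Hnf4a lists. Beside Foxa2 it was chr12:55839799-55839855 (score 9.28, rank 141), 561.5 bp from the Foxa2 peak centre, at a Foxa3 peak of both stages and an iHep Hnf4a peak of its own line. Beside Foxa3 it was chr7:26023445-26023516 (score 14.5, rank 126), 766 bp from the Foxa3 peak centre and an iHep Hnf4a peak of that line.

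Among joint Foxa peaks the score percentiles were spread widely. Median percentiles were 60.2 (46.6 to 79.8) for joint Foxa1 peaks, 58.3 (38.3 to 80.7) for joint Foxa2 peaks and 32.6 (10.3 to 79.8) for joint Foxa3 peaks, and all 3 intervals hold the 50th percentile. With the 3 regions kept in, the Foxa3 value was 79.6 (66.2 to 83.6). With the Foxa1 list cut into 4 parts of 25% by score, 4, 10, 8 and 14 peaks were joint from the lowest part to the highest. In the Foxa2 list the counts were 5, 8, 8 and 11, and in the Foxa3 list 3, 1, 2 and 1. The lowest and highest parts of the Foxa1 list differed most, at 0.237% (0.0922 to 0.608) and 0.825% (0.492 to 1.38), and these intervals still overlapped.

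**Figure D3:**
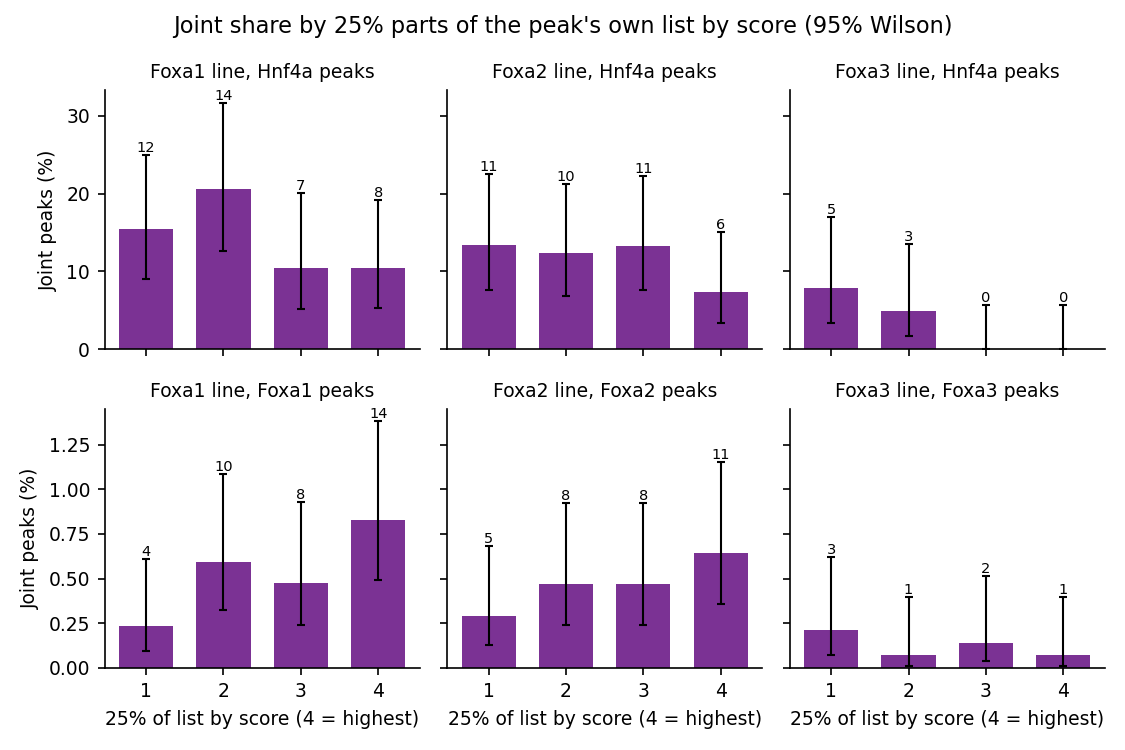
Share of joint peaks (y axis, percent, bars with 95% Wilson intervals; numbers are joint peaks) in 4 parts of 25% of a list by score (x axis, 4 the highest), for Hnf4a (top) and Foxa (bottom) in the 3 lines. The lowest part of the Foxa1 list has 4 joint peaks and the highest 14, while the upper 2 parts of the Hnf4a list of the Foxa3 line have 0.

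Fate was the share of 48-hour peaks that overlapped a peak of the line's iHep lists. The titles carry other codes at the iHep stage in every line, and another replicate number for iHep_4a3, so a line here means the same pair of factors and is not shown to be the same preparation of cells. The iHep Hnf4a lists were longer than the 48-hour ones, with 1572, 2474 and 2501 peaks in the Foxa1, Foxa2 and Foxa3 lines, and the iHep Foxa lists held 3432, 10330 and 12661 peaks. Hnf4a peaks that were joint at 48 hours were found again in the iHep Hnf4a list more often than apart ones, in all 3 lines. In the Foxa1 line 27 of 41 joint peaks (65.9%, 50.5 to 78.4) and 107 of 238 apart peaks (45.0%, 38.8 to 51.3) were found, against 48.6% of all its Hnf4a peaks. The difference was 20.9 percentage points (4.33 to 34.9). The Foxa2 line gave 25 of 38 joint peaks (65.8%) and 86 of 275 apart peaks (31.3%), against 36.3% of all, a difference of 34.5 points (17.6 to 48.5). The Foxa3 line gave 7 of 8 joint peaks (87.5%) and 26 of 238 apart peaks (10.9%), against 14.7% of all, a difference of 76.6 points (41.7 to 87.4). The 3 intervals lie above 0. Among the upper 50% of each list by score, the difference was 13.6 points (-15.9 to 36.5) with Foxa1, which spans 0, and 42.2 (10.9 to 62.5) with Foxa2, and no joint peak was left with Foxa3. The order in all 3 lines also rests on leaving out the 3 regions. With them kept in, the difference was -23.7 points (-32.2 to -14.4) with Foxa1 and 58.2 (50.3 to 64.5) with Foxa2. It was -5.05 (-10.8 to 1.96) with Foxa3, which spans 0. Most Hnf4a peaks of the 3 regions lay in that of chromosome 9 (110 of 128, 106 of 125 and 106 of 119). The iHep Hnf4a lists had 1, 3 and 0 peaks there. The lines differed mainly in the apart class, which ran from 10.9% to 45.0%, while the intervals of the 3 joint shares overlapped.

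Near Hnf4a peaks were found again at shares between those of joint and apart peaks in each line. The counts were 7 of 11 (63.6%, 35.4 to 84.8), 8 of 15 (53.3%, 30.1 to 75.2) and 4 of 5 (80%, 37.6 to 96.4), too few to place them apart from the joint class.

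Width, score and crowding of the peaks were looked at in turn, since each could move with the class. Peaks were split at 100 bp, at the middle of the list by score, and by whether another Hnf4a peak lay within 2 kb. Of the 17 groups that held both classes, joint peaks were found again more often than apart peaks in all 17. The groups are splits of the same peaks, with each peak counted once per split, so they are not separate checks. Whether width, score or crowding had a part in the difference was not tested. Under 100 bp the shares were 65.2% against 40.5% with Foxa1 and 55.0% against 26.9% with Foxa2. The smallest gap was in the Foxa1 line among peaks with a neighbour, 66.7% of 12 against 61.3% of 80, where the intervals overlapped widely. Several of these groups in the Foxa3 line held fewer than 5 joint peaks. By score, all 8 joint peaks of the Foxa3 line were in the lower 50%. Apart peaks of that line were found again at 15.9% in the lower 50% and 6.4% in the upper. In the Foxa1 line these shares of apart peaks were 40.0% and 49.6%, and in the Foxa2 line 35.1% and 27.8%.

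Hnf4a sites also differed in whether Foxa was found there in iHep cells. Of Hnf4a peaks that were apart at 48 hours, 0 of 238 overlapped an iHep Foxa1 peak in the Foxa1 line, which allows a share of up to 1.26% (3 counts of 238). An iHep Foxa2 peak was overlapped by 3 of 275 (1.09%) and an iHep Foxa3 peak by 8 of 238 (3.36%). Joint Hnf4a peaks, which held Foxa at 48 hours by definition, did so at 41.5%, 23.7% and 62.5%, and over all Hnf4a peaks the shares were 6.21%, 4.27% and 5.98%. Apart Hnf4a peaks found again in iHep cells were therefore Hnf4a peaks without a Foxa peak at both stages in all but 3 of 86 cases with Foxa2 and 7 of 26 with Foxa3. With Foxa1 this held for all 107.

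For the Foxa peaks themselves, the joint and apart classes did not differ in their own fate by more than counting error. For Foxa1, 15 of 36 joint peaks (41.7%) and 2067 of 6716 apart peaks (30.8%) overlapped an iHep Foxa1 peak, against 30.8% of all, a difference of 10.9 points (-3.68 to 27.1). For Foxa2, 9 of 32 joint peaks (28.1%) and 31.5% of apart peaks overlapped an iHep Foxa2 peak, against 31.5% of all, a difference of -3.39 points (-16.0 to 13.9). For Foxa3, 6 of 7 joint peaks (85.7%) and 74.6% of apart peaks overlapped an iHep Foxa3 peak, against 74.6% of all, a difference of 11.2 points (-25.9 to 22.9). With the 3 regions kept in, the Foxa3 difference was -56.4 points, and among the upper 50% by score the Foxa1 difference was -14.5 points. The intervals are wide and do not show that the classes were kept alike.

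**Figure D4:**
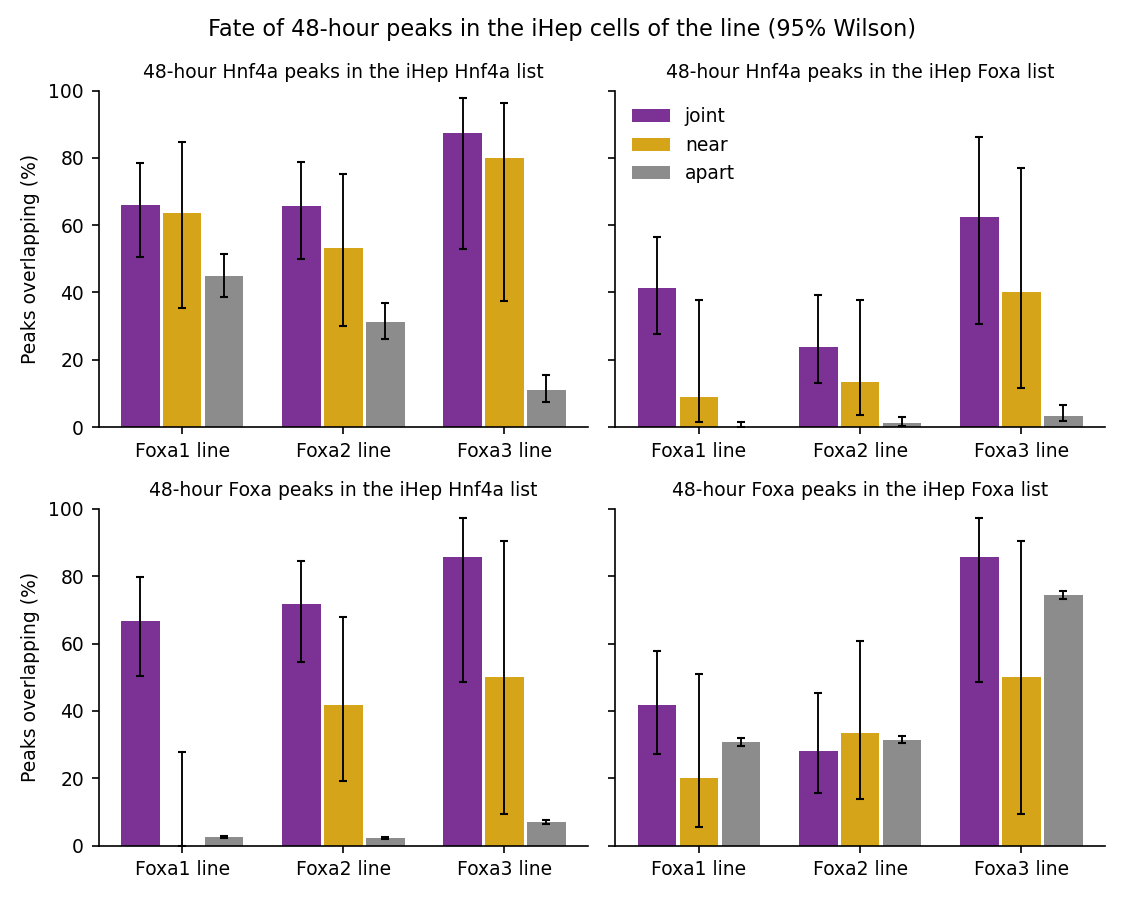
Share of 48-hour peaks (y axis, percent, with 95% Wilson intervals) that overlap a peak of the line's iHep Hnf4a list (left) or iHep Foxa list (right), for Hnf4a peaks (top) and Foxa peaks (bottom), by line and class. Joint Hnf4a peaks stand above apart ones at top left (65.9% against 45.0%, 65.8% against 31.3% and 87.5% against 10.9%). At bottom right the shares of apart Foxa peaks lie within the wide intervals of the joint ones.

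Foxa peaks with Hnf4a at 48 hours mostly held Hnf4a in iHep cells. Of joint Foxa1 peaks 24 of 36 (66.7%) overlapped an iHep Hnf4a peak, against 2.59% of apart peaks and 2.93% of all. The Foxa2 shares were 71.9% of joint, 2.15% of apart and 2.55% of all Foxa2 peaks. For Foxa3 they were 85.7%, 6.93% and 7.04%. The joint class was chosen for holding Hnf4a at 48 hours, so these shares describe Hnf4a at the same sites at a later stage.

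Foxa peaks that lacked Hnf4a at 48 hours differed by whether they stayed Foxa peaks. Of apart Foxa1 peaks kept in the iHep Foxa1 list, 135 of 2067 (6.53%, 5.54 to 7.68) held an iHep Hnf4a peak, and of those not kept 39 of 4649 (0.839%, 0.614 to 1.14) did. For Foxa2 the shares were 123 of 2135 (5.76%) kept and 23 of 4640 (0.496%) not kept. For Foxa3 they were 375 of 4216 (8.89%) kept and 17 of 1439 (1.18%) not kept. The intervals of kept and lost peaks did not overlap in any of the 3 lines. The iHep Foxa and Hnf4a lists come from cells of 1 line and stage, except that in the Foxa2 line their titles carry different codes.

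Read backwards, few sites bound by both factors in iHep cells had been bound by both at 48 hours. With Foxa1, 243 iHep Hnf4a peaks overlapped an iHep Foxa1 peak. Of these, 13 (5.35%) lay over a Foxa1 and an Hnf4a peak of 48 hours, 133 (54.7%) over Foxa1 alone, 1 over Hnf4a alone and 96 (39.5%) over neither. With Foxa2, of 511 such peaks, 10 (1.96%) had both, 124 (24.3%) Foxa2 alone, 2 Hnf4a alone and 375 (73.4%) neither. With Foxa3, of 945, 5 (0.529%) had both, 412 (43.6%) Foxa3 alone, 9 Hnf4a alone and 519 (54.9%) neither. Sites joint in iHep cells thus had an earlier Foxa peak far more often than an earlier Hnf4a peak, in lists where 48-hour Foxa peaks outnumbered Hnf4a peaks by far. At iHep Hnf4a peaks without an iHep Foxa peak, both factors at 48 hours were found at 0.828%, 0.764% and 0.0643%. These shares are lower than at joint iHep peaks in each line, with overlapping intervals in the Foxa2 and Foxa3 lines. Foxa alone was found there at 3.09%, 1.17% and 2.44% and Hnf4a alone at 6.62%, 3.72% and 1.16%. The short 48-hour Hnf4a lists (290, 328 and 251 peaks) limit how many iHep peaks could have had both.

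The joint peaks were then followed one by one. Overlapping joint peaks were merged into regions, 36 with Foxa1, 29 with Foxa2 and 7 with Foxa3, or 65 distinct regions with a median width of 563 bp. A total of 58 were joint in 1 line, 7 in both the Foxa1 and Foxa2 lines, and 0 of the 65 were shared between the Foxa3 line and another. The files name no genes at these positions, and no gene annotation on mm9 was used here.

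Regions joint in the Foxa1 line lay at other 48-hour Foxa peaks at shares near those of Foxa1 peaks in general. Of the 36, 20 held a Foxa2 peak of the Foxa2 line and 0 held a Foxa3 peak at 48 hours, and apart Foxa1 peaks did so at 45.7% and 1.13%. Of the 20, 13 had no Hnf4a peak of the Foxa2 line. In iHep cells 15 held Foxa1 and 24 held Hnf4a in their own line, against 30.8% and 2.59% of apart Foxa1 peaks. In iHep cells of the Foxa2 line, 25 held Foxa2 and 25 held Hnf4a, against 52.9% and 3.44% of apart Foxa1 peaks. The iHep Foxa3 list had a peak at 1 of them and the iHep Hnf4a list of that line at 16, against 1.12% and 1.33% of apart Foxa1 peaks. A total of 4 of the 36 were in no iHep list, a share that was not counted for apart Foxa1 peaks. In neither iHep list of their own line were 27.8% of joint and 68.6% of apart Foxa1 peaks.

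For the Foxa2 line, 12 of the 29 regions held a Foxa1 peak, 1 held a Foxa3 peak and 13 held an Hnf4a peak of the Foxa3 line. Apart Foxa2 peaks did so at 45.3%, 2.21% and 0.0443%, so the Foxa counts are near those of Foxa2 peaks in general. In iHep cells 9 held Foxa2 and 20 held Hnf4a in their own line, against 31.5% and 2.15% of apart Foxa2 peaks. A total of 8 were in no iHep list, a share that was not counted for apart Foxa2 peaks. In neither iHep list of their own line were 25% of joint and 68.1% of apart Foxa2 peaks. The 7 regions of the Foxa3 line held no Foxa1 or Foxa2 peak at either stage, as did nearly all apart Foxa3 peaks, of which 0.831% to 2.72% overlapped each of those lists. Hnf4a of the Foxa2 line was found at 5 of these 7 at 48 hours, against 0.248% of apart Foxa3 peaks. In iHep cells of the Foxa3 line, Foxa3 and Hnf4a were each found at 6 of the 7, against 74.6% and 6.93% of apart Foxa3 peaks. The Foxa3 count is thus near that of Foxa3 peaks in general.

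**Figure D5:**
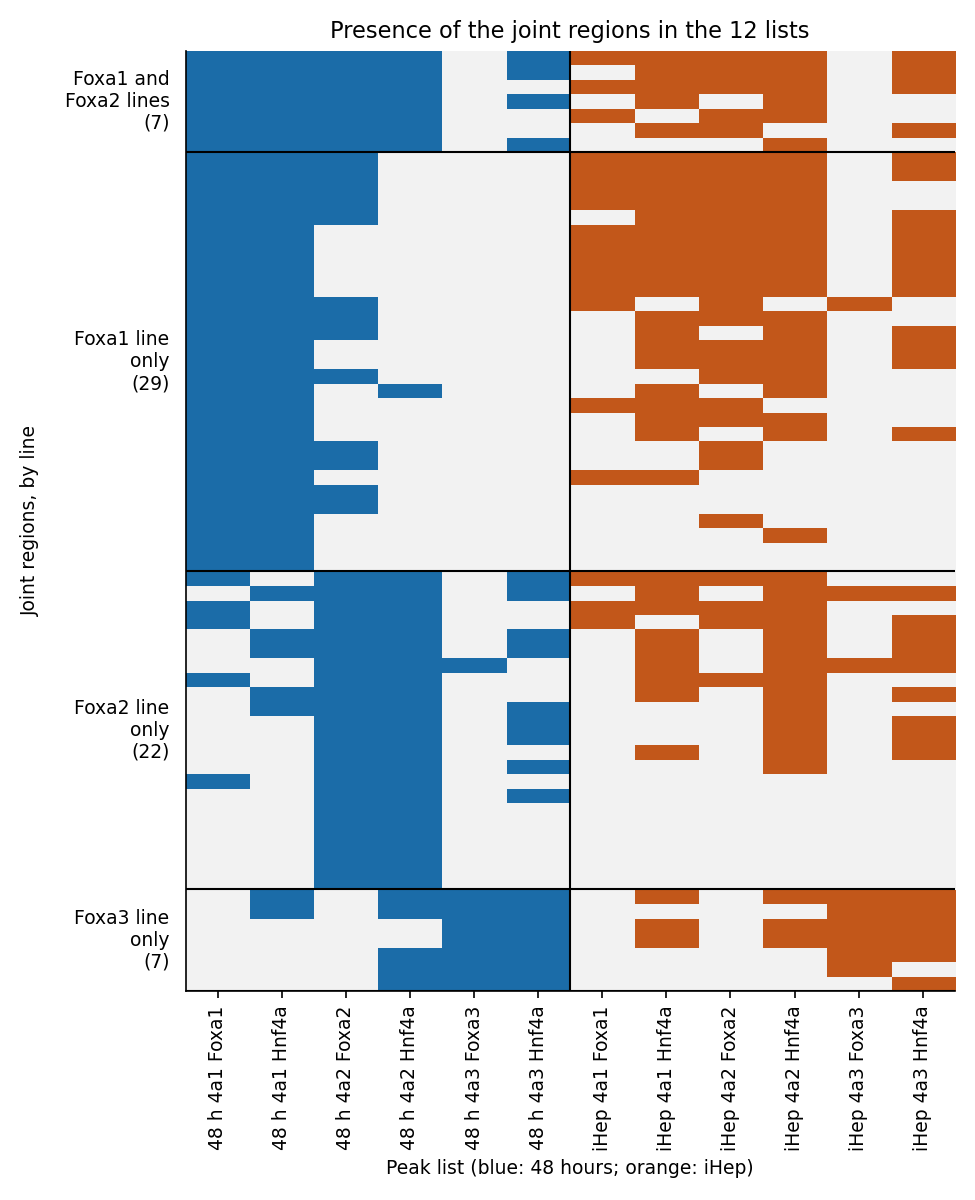
Presence (filled) of a peak of each of the 12 lists (x axis; blue for 48 hours, orange for iHep) at the 65 joint regions (y axis, 1 row each), grouped by the line or lines in which a region was joint. Hnf4a of the Foxa2 line is present at 5 of the 7 regions of the Foxa3 line. In no iHep list are 4 regions of the Foxa1 line and 8 of the Foxa2 line, shares that were not counted for apart Foxa peaks.

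The 7 regions joint in both the Foxa1 and the Foxa2 line are the shared sites of the experiment, and each is given with its peak scores, which are comparable only within a list. The widest presence was at chr16:52333555-52334303, in 10 of 12 lists. Its Foxa peaks ranked 82 of the Foxa1 list (score 131) and 66 of the Foxa2 list (score 91.9), while its 48-hour Hnf4a peaks scored 5.62, 7.93 and 9.77 in the 3 lines. In iHep cells it scored 78.2 for Foxa1, 106 for Foxa2, and 31.0, 76.4 and 7.68 for Hnf4a in the Foxa1, Foxa2 and Foxa3 lines. It had no Foxa3 peak at either stage.

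At chr11:67328954-67329535, in 9 lists, the 48-hour scores were 17.9 for Foxa1, 45.0 for Foxa2, and 8.22 and 10.9 for Hnf4a in the Foxa1 and Foxa2 lines. In iHep cells Hnf4a was found there in all 3 lines, at 20.3, 34.6 and 27.0, with Foxa1 at 14.0 and Foxa2 at 45.8. At chr8:43272343-43272922 the 48-hour Foxa peaks scored 63.0 for Foxa1 and 75.6 for Foxa2. Both stayed in iHep cells (30.0 and 38.4), with Hnf4a in the Foxa2 line (19.2) and no Hnf4a peak in the iHep cells of the Foxa1 line.

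The other 4 shared regions had Foxa1 scores from 13.8 to 17.7, and iHep Foxa1 was found at none of them. At chr14:77081538-77082144 Foxa2 scored 39.0 at 48 hours and 28.2 in iHep cells, and iHep Hnf4a scored 9.81 and 15.9 in the 2 lines and 9.59 in the Foxa3 line. At chr4:82156660-82157474 Foxa2 scored 25.8 at 48 hours and 15.6 in iHep cells. There iHep Hnf4a was found in the Foxa1 line (9.90) and the Foxa3 line (11.2) and not in the Foxa2 line. At chr13:104813357-104813844 Foxa was lost from both lines in iHep cells, while Hnf4a stayed, at 13.6 and 18.5. At chr17:13745212-13745921 the 48-hour Hnf4a scores were 5.37, 18.8 and 15.0 in the Foxa1, Foxa2 and Foxa3 lines, and Hnf4a of the Foxa2 line (17.9) was the single iHep peak. The shared regions thus include sites that kept both factors, sites that kept Hnf4a alone and a site that kept Foxa2 without Hnf4a in the Foxa2 line.

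Among regions of the Foxa1 line, the best by the summed ranks of both scores was chr5:9040595-9041442. Its Foxa1 peak scored 29.5 and held 2 Hnf4a peaks, the higher at 14.3 and rank 8 of its list. It had no other 48-hour peak, and in iHep cells its Hnf4a scores were 79.1 (Foxa1 line) and 115 (Foxa2 line), the highest score of each of those lists. Foxa1 (14.3), Foxa2 (54.4) and Hnf4a of the Foxa3 line (12.9) were also found there in iHep cells. The next 4 regions fared differently from one another. At chr6:94785698-94786193 (Foxa1 46.4, Hnf4a 9.30) the Foxa2 list had a peak at both stages, 28.7 and 13.7, and Hnf4a was not found again. At chr10:22814351-22814820 (Foxa1 44.5, Hnf4a 9.40) a 48-hour Foxa2 peak (36.4) was the single other peak. At chr7:98254880-98255522 (Foxa1 51.0, Hnf4a 9.02) no other list had a peak. At chr11:88885524-88886251 (Foxa1 22.2, Hnf4a 14.3) Hnf4a was found in the iHep cells of all 3 lines (9.13, 30.5 and 13.4). An iHep Foxa2 peak (9.81) was found there too, and an iHep Foxa1 peak was not.

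Among regions of the Foxa2 line the best by ranks was chr17:39984412-39985758 (Foxa2 61.7, Hnf4a 21.1), which belongs to a run of wide peaks. Between chr17:39979954 and chr17:39985791 lay 5 Foxa2 and 4 Hnf4a peaks of the Foxa2 line and 3 Hnf4a peaks of the Foxa3 line at 48 hours, with Hnf4a peaks up to 3515 and 3526 bp wide, and iHep Hnf4a peaks in both lines. None of the 4 lists of the Foxa1 line had a peak there. The run holds 2 joint regions of the Foxa2 line, and without it no joint share, percentile or fate difference left its interval.

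The rest of the 5 best of the Foxa2 line include the shared sites on chromosomes 8 and 11. At chr5:147072475-147072920 Foxa2 scored 21.6 and Hnf4a 25.3, the highest score of the 38 joint Hnf4a peaks of that line. Hnf4a was also found there in the Foxa3 line (51.9) and in iHep cells of the Foxa2 line (5.87), without Foxa2. At chr7:126032392-126033030 (Foxa2 28.2, Hnf4a 10.7) both factors stayed in iHep cells of the Foxa2 line, at 20.6 and 14.2, and both were found in iHep cells of the Foxa1 line, at 12.7 and 7.03.

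All 7 joint regions of the Foxa3 line are given here. Both factors were found again in iHep cells at 5 of them. At chr6:85087430-85087764 the 48-hour scores were 11.9 for Foxa3 and 10.9 for Hnf4a, and the iHep scores were 51.3 for Foxa3 and 33.4 for Hnf4a. Hnf4a was found there in all 3 lines at both stages. At chr7:134919684-134921342 Foxa3 scored 23.2 and then 18.0, and Hnf4a 13.7 and then 18.4. At chr10:7382807-7383518 Foxa3 scored 19.9 and then 26.6, and Hnf4a 7.83 and then 16.2.

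Foxa3 and Hnf4a were also both kept at the next 2 regions. At chr7:26022516-26022913 Foxa3 scored 17.4 and then 16.9, and Hnf4a 5.75 and then 36.1. At chr13:37918423-37919296 Foxa3 scored 9.60 and then 21.7, and Hnf4a 8.36 and then 13.6. The last 2 kept 1 factor: chr14:27489310-27489671 kept Foxa3 (8.95 and then 18.6) without Hnf4a, and chr11:99091530-99091863 kept Hnf4a (6.09 and then 13.2) without Foxa3. Scores at the 2 stages come from different lists, so their sizes do not show a change in binding.

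The lines also shared Hnf4a peaks with one another at 48 hours, most between the Foxa2 and Foxa3 lines. Of apart Hnf4a peaks of the Foxa2 line, 116 of 275 (42.2%) were Hnf4a peaks in the Foxa3 line and 41 (14.9%) in the Foxa1 line. Of apart Hnf4a peaks of the Foxa3 line, 116 of 238 (48.7%) were Hnf4a peaks in the Foxa2 line and 37 (15.5%) in the Foxa1 line. Apart Hnf4a peaks of the Foxa1 line were Hnf4a peaks of the Foxa2 line at 20.2% and of the Foxa3 line at 16.4%. The 2 lines that shared most are those whose titles carry the common code, and whether the code had a part in this was not tested.

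Joint Hnf4a peaks of the Foxa2 and Foxa3 lines had the same order by count, over few peaks. For the Foxa2 line 12 of 38 (31.6%, 19.1 to 47.5) were Hnf4a peaks in the Foxa3 line and 9 (23.7%, 13.0 to 39.2) in the Foxa1 line. These intervals overlapped. Of the 38, 4 lay in the run on chromosome 17, where the Foxa3 line had wide Hnf4a peaks and the Foxa1 line had none, so the order in the Foxa2 line leans on that run. For the Foxa3 line 6 of 8 (75%) were Hnf4a peaks in the Foxa2 line and 2 of 8 (25%) in the Foxa1 line. Of joint peaks of the Foxa1 line, 4 of 41 (9.76%, 3.86 to 22.5) were Hnf4a peaks with Foxa2 and 3 (7.32%) with Foxa3, and the first interval overlaps that of its apart peaks (15.6 to 25.7). Counted by joint Foxa1 peaks, 8 of 36 (22.2%) held an Hnf4a peak of the Foxa2 line. Of apart Foxa1 peaks, which by definition held no Hnf4a peak of their own line, 3 of 6716 (0.0447%) did.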

How the data were processed

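The authors deposited ChIP-seq peak lists, with a start, an end and a score per peak, of which 12 of 13 were used. Per the submitters' processing notes the tools were BWA 0.6.2, MACS2 2.1.0 and bedtools 2.16.2 and the build mm9; their roles, and the use of input libraries in calling, are not given in the sources used here. The unit of the deposited score is not stated, so scores were ranked within a list only. Groups were taken from the labels, 1 library each, and no test was run. Overlaps, distances between centres and intervals were computed in Python 3.11.15 with NumPy 2.4.6, pandas 2.3.3 and SciPy 1.17.1, and checked first on simulated intervals of known overlap. Apart from the 3 regions named above, no peak was filtered. Depth is unknown. Regions were named by a rule: the 5 best joint regions of a line by summed rank fractions, all where a line had 10 or fewer, all joint in 2 lines, and the highest-scoring near and apart Hnf4a peak of each line. Apart from these, the run of peaks on chromosome 17 was chosen after its values were seen. The comparison, its members and its rules were chosen with earlier results of these data known. Alternatives were a 50% overlap, centres within 200 bp, a near limit of 5 kb, the upper 50% by score, the 3 regions kept in and iHep lists of equal length; 2 more, without the run on chromosome 17 and with chains of Hnf4a peaks counted once, were chosen after seeing the data. No gene was named at a position and no sequence is given, since the reference tables are of another build.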

Additional observations from a re-analysis of the deposited data

Results flagged for a closer look

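The difference in fate between joint and apart Foxa peaks had opposite signs in the lines. It was 10.9 percentage points for Foxa1, -3.39 for Foxa2 and 11.2 for Foxa3, and each interval spans 0. The sign for Foxa2 depended on the setting. It was 1.82 without the run on chromosome 17, 0.644 with Hnf4a chains counted once, 2.09 with iHep lists of equal length and 4.64 among the upper 50% by score. Under the remaining alternatives the Foxa2 difference stayed below 0. The median score percentile of joint Foxa peaks lay above the middle of the list in the Foxa1 line (60.2) and the Foxa2 line (58.3) and below it in the Foxa3 line (32.6), and each interval spans 50. With 1 library per line these differences between lines were not tested.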

How the results depend on the processing

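Of 116 values recomputed under the alternatives, 98 stayed within the interval of the reported value, 16 moved out of it and 2 reversed. With the 3 regions kept in, the joint share was 0.782% of Foxa1 and 0.58% of Foxa3 peaks, and 37.8%, 33.6% and 31.6% of Hnf4a peaks in the Foxa1, Foxa2 and Foxa3 lines. The fate difference of joint and apart Hnf4a peaks then reversed to -23.7 points in the Foxa1 line and was 58.2 in the Foxa2 line. In the Foxa3 line it reversed to -5.05 (-10.8 to 1.96), an interval that spans 0. The fate difference of Foxa3 peaks was -56.4, and the percentile of joint Hnf4a peaks of the Foxa3 line was 59.1. With the upper 50% of each list by score, the joint share was 0.296%, 0.264% and 0% of Foxa1, Foxa2 and Foxa3 peaks and 7.64%, 6.06% and 0% of Hnf4a peaks, the fate difference of Foxa1 peaks was -14.5, and the Foxa3 line had no joint peak to follow. With centres within 200 bp, the joint share of Hnf4a peaks in the Foxa1 line was 10.3%. The other alternatives moved no value out of its interval. Keeping the regions in adds their peaks and the score limit removes peaks; other causes were not tested. No paired analysis was possible because each group has 1 library and no test was run.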
